A study of Mus musculus with 10 samples.

Results

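The pregnancy-specific glycoproteins (Psg) and the carcinoembryonic antigen-related cell adhesion molecules (Ceacam) are one gene family, and they were taken here by symbol: every gene named Psg with a number, Psg-ps1, and every gene whose symbol starts with Ceacam. Of 24302 genes in the table of E11.5 mouse embryos, 30 were members, and reads were counted for all 30. Among all 24302 genes, reads were counted for 20665. They comprised 13 coding Psg genes, the pseudogene Psg-ps1, 8 Ceacam genes known from the placenta (Ceacam3, Ceacam5, Ceacam9, Ceacam11, Ceacam12, Ceacam13, Ceacam14 and Ceacam15), 7 other Ceacam genes (Ceacam1, Ceacam2, Ceacam10, Ceacam16, Ceacam18, Ceacam19 and Ceacam20) and the pseudogene Ceacam-ps1. The first 22 are the placental members below, a grouping by where the genes are known to be active. It was chosen with earlier results of these data known.

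PSG proteins are secreted by trophoblast, the outer lineage of the conceptus that builds the fetal side of the placenta, and are among the most abundant fetal proteins in maternal blood. They are built from immunoglobulin-like domains and are known to act on integrins, on cell-surface proteoglycans and on latent TGF-beta. CEACAM proteins share the immunoglobulin-like domains. CEACAM1 sits in the membrane of epithelial, endothelial and immune cells, binds to itself and to other CEACAM proteins, and signals through the phosphatases SHP-1 and SHP-2, whereas the rodent placental Ceacam genes are, like Psg, best known from trophoblast.

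RNA was sequenced from 10 whole C57BL/6 embryos at embryonic day 11.5, in a study of Wwc2, a regulator of the Hippo pathway. By the labels, 4 embryos were homozygous knockouts (WWC2-/-), 3 were heterozygous (WWC2-/+) and 3 were wild type. Both knockout genotypes came from a floxed Wwc2 gene cut by Zp3-Cre, whose promoter is active in the growing oocyte, so that every cell of the embryo and of its trophoblast could carry the deleted allele. The values used here are 1 mean normalized count per gene, taken by the authors over all 10 embryos with no error given, so no genotypes were compared and no test was run. No value here comes from the authors' per-gene comparisons of the genotypes, and the targeted gene was therefore not checked by genotype. The unit was the count of reads per gene, scaled between libraries but not by gene length, and each level given per kilobase (kb) is that mean divided by the gene's exon length in GENCODE. By the size factors, the mean over all genes stood for between 15752600 and 31419400 counted reads per embryo. In bulk RNA from whole embryos, more cells of a type and more RNA per cell cannot be told apart.

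The family is shown first by the sequences in front of its genes, because the windows sort the members into groups. RefSeq promoter windows (GRCm38.p6, 250 bases before to 50 after the annotated start) matched 23 of the 30 members. Ceacam-ps1, Ceacam14, Ceacam16, Psg-ps1, Psg16, Psg19 and Psg22 were not matched. The 120 bases before the start are printed 5′ to 3′ for Psg genes of high and low level and for the Ceacam genes that resemble them. Capitals mark CTTATC, the reverse complement of a GATA-factor motif, and ATAAA, which resembles the TATA box, where the second starts 35 to 50 bases after the first. Psg29 lies at chr7:17203357-17203476 on the plus strand, Psg27 at chr7:18567306-18567425 on the minus strand, Psg21 at chr7:18656726-18656845 on the minus strand, Psg26 at chr7:18484150-18484269 on the minus strand, Ceacam5 at chr7:17713132-17713251 on the plus strand and Ceacam3 at chr7:17150099-17150218 on the plus strand.
Psg29: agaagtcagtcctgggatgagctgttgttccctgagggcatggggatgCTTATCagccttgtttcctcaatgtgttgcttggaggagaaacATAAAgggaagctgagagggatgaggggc
Psg27: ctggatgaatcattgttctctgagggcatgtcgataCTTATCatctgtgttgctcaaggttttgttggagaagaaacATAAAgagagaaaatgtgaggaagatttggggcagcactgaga
Psg21: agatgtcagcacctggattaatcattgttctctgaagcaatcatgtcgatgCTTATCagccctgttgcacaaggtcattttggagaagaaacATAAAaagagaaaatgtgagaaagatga
Psg26: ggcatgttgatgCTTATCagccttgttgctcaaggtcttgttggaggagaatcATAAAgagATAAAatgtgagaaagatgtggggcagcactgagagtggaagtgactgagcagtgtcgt
Ceacam5: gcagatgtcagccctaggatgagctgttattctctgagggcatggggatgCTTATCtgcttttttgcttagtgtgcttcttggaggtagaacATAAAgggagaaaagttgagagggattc
Ceacam3: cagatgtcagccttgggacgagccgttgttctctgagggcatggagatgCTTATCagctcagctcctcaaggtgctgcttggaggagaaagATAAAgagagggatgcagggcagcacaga

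The motif pair was in the windows of 9 of 10 Psg genes and of 2 of 13 Ceacam genes, Ceacam3 and Ceacam5. Across one window for each of 27025 genes it was in 69, or 0.255%, 11 of them family members. CTTATC alone, on either strand, was in 7.43% of all windows, and ATAAA alone in 40.9%. The distance between the motif starts was 41 bases in 8 of the 9 Psg windows, 43 in that of Psg29 and 42 in those of Ceacam3 and Ceacam5. Ceacam3 and Ceacam5 carry the older symbols Psg24 and Psg30, and Ceacam3 lies between Psg16 and Psg29 and Ceacam5 next to Psg-ps1 on the chromosome. The motifs were chosen after the windows had been read, and a match is a description of letters, not a bound site.

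Psg20 was the Psg gene whose window did not hold the pair, and it was also the Psg gene with the lowest level per kb. The RefSeq start of Psg20 lies 193 bases downstream of the outermost start in GENCODE. Its window shared 54 exact stretches of 12 bases with that of Psg23, and every one of them was displaced by the same 193 bases. Counted from the GENCODE start, the Psg20 window reached only 57 bases upstream and held ATAAA at position -31, the place it has in Psg23. The place of CTTATC was outside the window, so the pair could not be looked for. The first 120 bases of this window (chr7:18686123-18686242 on the minus strand), with ATAAA in capitals, are shown for comparison with the others.
Psg20: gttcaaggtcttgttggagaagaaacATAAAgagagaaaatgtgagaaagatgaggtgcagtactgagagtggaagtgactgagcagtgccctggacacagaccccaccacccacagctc

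The remaining Ceacam windows fell into other groups. Ceacam11, Ceacam12 and Ceacam13 shared between them up to 33 stretches of 12 bases, Ceacam9 and Ceacam15 shared 46, and Ceacam1 and Ceacam10 shared 164 of 289. Ceacam18, Ceacam19 and Ceacam20 shared none with another member. The pair of Ceacam11 (chr7:17972047-17972166 on the plus strand) and Ceacam13 (chr7:18009769-18009888 on the plus strand) is printed as a second placental form, and that of Ceacam1 (chr7:25477626-25477745 on the minus strand) and Ceacam10 (chr7:24777047-24777166 on the plus strand) as a form shared by these genes outside the placental cluster. No letters are in capitals.
Ceacam11: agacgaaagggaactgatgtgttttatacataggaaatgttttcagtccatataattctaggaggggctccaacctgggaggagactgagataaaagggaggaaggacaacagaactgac
Ceacam13: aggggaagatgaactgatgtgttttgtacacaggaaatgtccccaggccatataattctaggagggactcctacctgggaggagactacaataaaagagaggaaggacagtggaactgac
Ceacam1: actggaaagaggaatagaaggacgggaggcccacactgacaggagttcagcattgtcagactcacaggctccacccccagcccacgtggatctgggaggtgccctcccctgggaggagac
Ceacam10: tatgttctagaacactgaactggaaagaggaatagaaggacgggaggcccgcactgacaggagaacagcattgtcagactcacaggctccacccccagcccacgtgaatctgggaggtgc

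**Figure D1:**
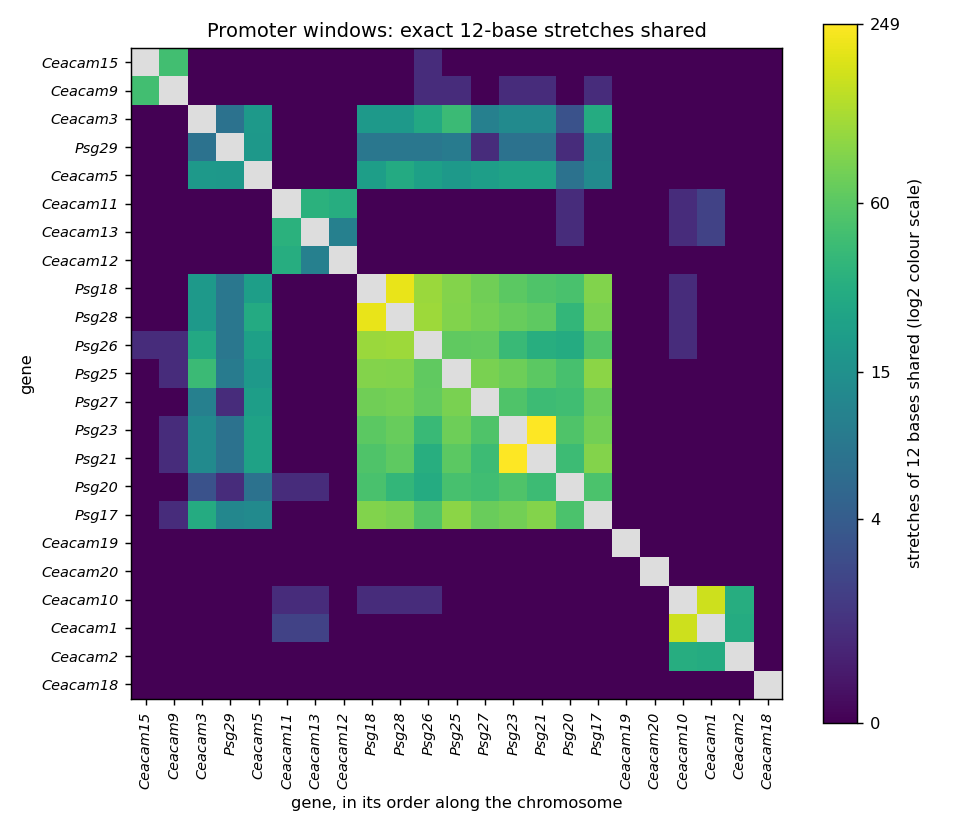
Exact 12-base stretches shared between the RefSeq promoter windows of 23 members, both axes in chromosome order; brighter cells share more (log2 colour scale) and the diagonal is grey. The block of Psg18 to Psg17 is bright throughout, Psg21 and Psg23 share 249 of 289 stretches, and Ceacam3, Psg29 and Ceacam5 share fewer with that block, while Ceacam11 to Ceacam13 and the Ceacam10, Ceacam1 and Ceacam2 windows form squares of their own.

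Within the Psg windows, Psg21 and Psg23 shared 249 of 289 stretches of 12 bases, and Psg18 and Psg28 shared 205. The Psg29 window shared at most 18 with another member. The longest exact run common to the 9 Psg windows with the pair was AGAGTGGAAG, which 52 of all windows held on either strand. Of the windows of 27002 genes outside the family, 14 shared 5 or more stretches with the pooled Psg windows, Psg20 aside, and the highest shared 45. Windows with the motif pair belonged to genes with levels from 6.52 to 364 normalized counts per kb, and the 5 placental members with a window but no pair (Ceacam9, Ceacam11, Ceacam12, Ceacam13 and Ceacam15; Psg20 left aside) ranged from 18.6 to 565. The 2 ranges overlapped, and the pair was found in front of both the highest Psg gene per kb, Psg27, and the second lowest, Psg26.

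In the mean over all 10 embryos, whose genotypes were pooled, the placental members made up nearly all of the family's reads. How much each genotype gave to these means was not worked out here. The paper lists many placental members among the genes most upregulated in homozygous knockout embryos. Psg27, Psg21, Ceacam11 and Ceacam5 are in that list, and Psg29 is not. The pooled means therefore cannot be read as levels of wild-type embryos. The 22 placental members summed to 6614 normalized counts, 98.7% of the family, the 7 other Ceacam genes to 87.1, and Ceacam-ps1 to 0.31. The whole family was 0.0262% of all normalized counts. Psg genes, with Psg-ps1, held 55.9% of the family's counts and the placental Ceacam genes 42.8%. The 5 members with the most counts, Psg29 (1014), Ceacam5 (762), Psg27 (707), Ceacam11 (596) and Psg21 (462), held 52.8%. These sums count reads, so a long gene weighs more in them than a short one at the same level.

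**Figure D2:**
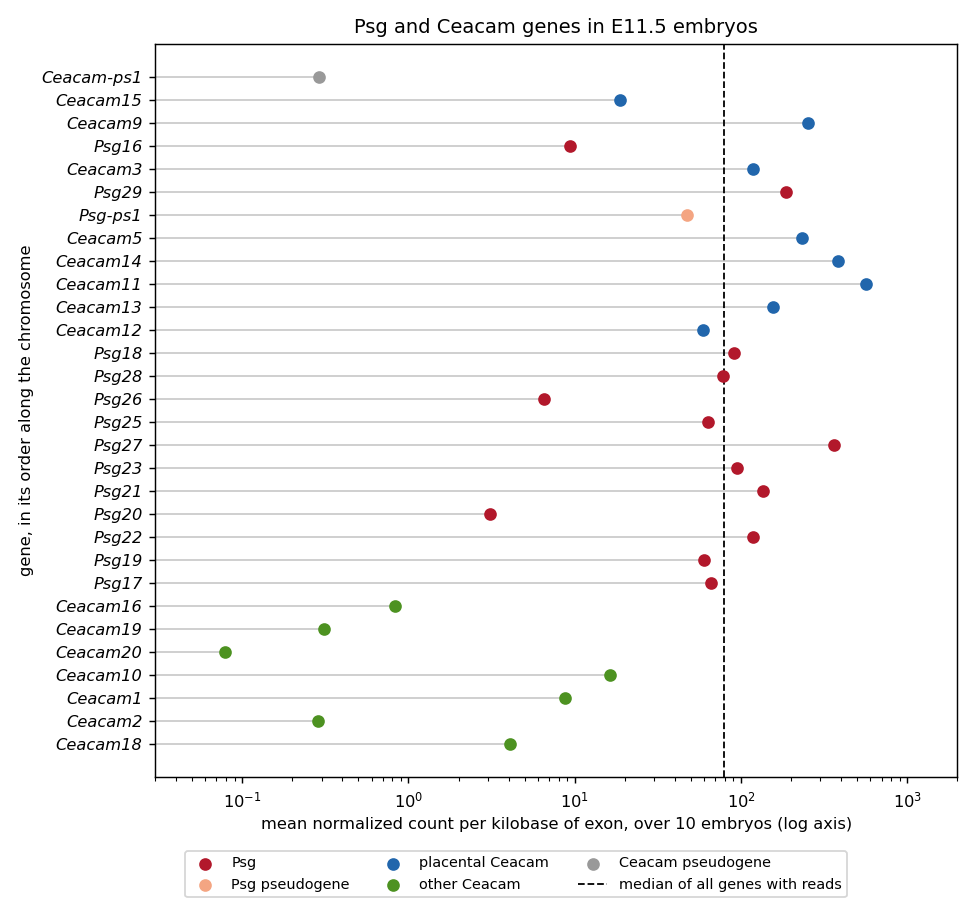
Authors' mean normalized count over 10 embryos per kilobase of exon (log axis) for the 30 members, listed in their order along the chromosome and coloured by group; the dashed line is the median of all genes with reads, 78.4. The placental members run from Ceacam15 to Psg17, and all but Psg16, Psg26 and Psg20 lie above the highest other Ceacam gene, Ceacam10 at 16.4. Ceacam10 itself lies above only 32.2% of all genes with reads and a length.

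Among the Psg genes, whose products are secreted glycoproteins, Psg27 was highest per kb at 364 (a mean of 707 normalized counts). Psg29 followed at 186 (1014 counts over 5445 bases of exon), Psg21 at 135 and Psg22 at 118. Psg22 is among the family members whose proteins have been studied most. Psg23 (94.9) and Psg18 (90.4) also lay above the median of all genes with reads and a length, 78.4 per kb. Psg28 (77.4), Psg17 (65.6), Psg25 (63.7) and Psg19 (59.8) lay just below it. This order depends on the length used. With the longest transcript as length, Psg21 had 223, above Psg29 at 186, and Psg18 had 164 and Psg19 91.1. Psg17 encodes the best known ligand of the tetraspanin CD9. Psg-ps1, annotated as a transcribed pseudogene, had 47.0 per kb. Psg16, first known as a carcinoembryonic antigen of the brain, had 9.40, Psg26 6.52 and Psg20 3.10. From Psg27 to Psg20 the coding Psg genes thus spanned 118-fold per kb, and Psg29 was 60.1 times Psg20, or 174 times without division by length. The Psg20 mean of 5.82 counts depended on 1 library and was 3.34 without it, as described below.

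The placental Ceacam genes ranged from 18.6 to 565 normalized counts per kb. Ceacam11 was the highest member of the whole family at 565 (a mean of 596 counts over 1054 bases of exon). Ceacam14 had 383, Ceacam9 251, Ceacam5 233, Ceacam13 156 and Ceacam3 118, so that 6 of the 8 lay above the median of all genes. Ceacam12 had 59.3. Ceacam15, the neighbour of Ceacam9 on the chromosome, had 18.6 and was the lowest of the 8. Little is known of what the single proteins of this group do.

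The other Ceacam genes, those not grouped as placental, were low. Ceacam10, a secreted short form, had 16.4 normalized counts per kb and Ceacam1, the membrane receptor with a signalling tail, 8.77. Their means were 24.5 and 50.9 counts. Ceacam18 had 4.06 per kb and Ceacam16, a protein of the tectorial membrane of the inner ear, 0.830. Ceacam19 had 0.312, Ceacam2 0.284 and Ceacam20 0.0786. None of the 7 reached the median of all genes. Ceacam1 was 30.9 times Ceacam2, its neighbour and nearest relative, per kb. The pseudogene Ceacam-ps1 had 0.291.

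The groups differed in their median levels. The median per kb was 194 for the 8 placental Ceacam genes, 71.5 for the 14 Psg genes and 0.830 for the 7 other Ceacam genes, beside 78.4 for the 19443 genes with reads and a length. The median of all 22 placental members, 92.6, was 112 times that of the other Ceacam genes. The ratio was 37.9 over members with a mean of at least 1 count and 234 for the placental Ceacam genes alone. Within the placental members, levels ran from 3.10 to 565. Of the 22, 19 were above every other Ceacam gene per kb, and Psg16, Psg26 and Psg20 were not. Without division by length, those not above were Ceacam15, Psg26 and Psg20. With the longest transcript as length, Ceacam15 (18.6) was also below Ceacam10 (23.4). Per kb of exon, Ceacam10 was the highest other Ceacam gene, at 16.4. It lay above only 32.2% of all genes with reads and a length, so most genes were above that bar too. Above the median of all genes were 12 members, all placental. These are means of 10 embryos with no error given. The spread between libraries could be recovered only for 7 members, given below, and no test was made.

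**Figure D3:**
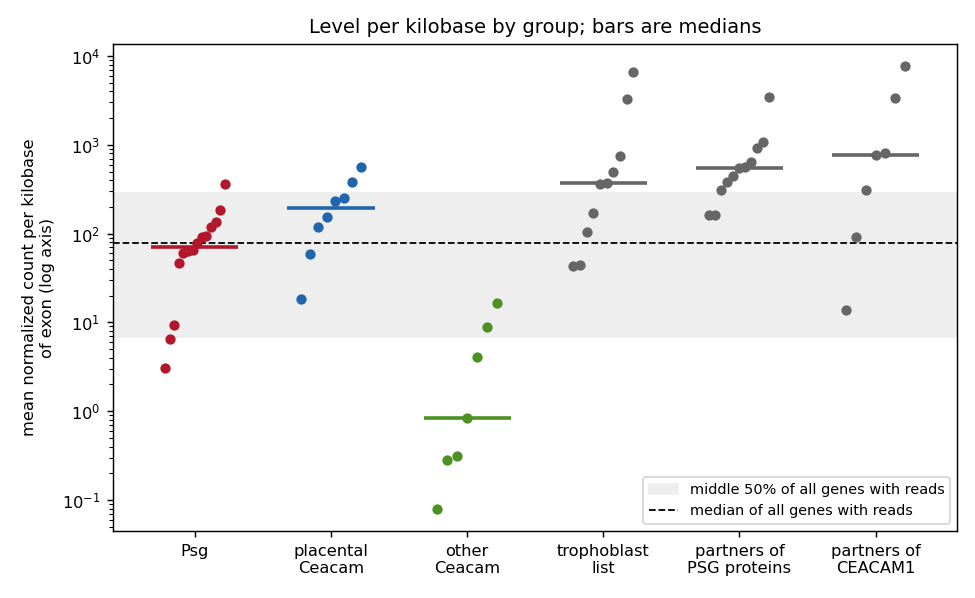
Authors' mean normalized count per kilobase of exon (log axis) for each gene (point) by group, with the group's median as a bar; the grey band is the middle 50% of all genes with reads (6.92 to 284) and the dashed line their median (78.4). The placental Ceacam genes have the highest median within the family (194) and the other Ceacam genes the lowest (0.830); some partners of the proteins and some trophoblast genes lie above every member.

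The markers of the tissue the placental members are known from were present in the same means. Having reads is common, as 20665 of all 24302 genes had them, so the levels are given. All 10 genes of the trophoblast list had reads, among them Tpbpa, the defining gene of the spongiotrophoblast, at 3250 normalized counts per kb, Prl3b1, a placental lactogen, at 6589, Ctsq, a placental cathepsin, at 105 and Ascl2, a regulator of the same layer, at 43.1. Of the 4 labyrinth genes, Dlx3 had 111 per kb, Syna 47.1 and Gcm1 5.30, and Synb was listed at 0. Of 5 genes of the decidua and its killer cells, the maternal side of the implantation site, 4 had reads, Prl8a2 at 9045 per kb, Gzmd at 1383, Gzme at 487 and Prf1 at 87.5, and Klra8 was listed at 0. The labelled tissue was present through Hbb-y of primitive red cells at 214939 per kb, Tubb3 of neurons at 5843, Twist1 of mesenchyme at 2476 and Tnnt2 of the heart at 295. The part that placental or maternal tissue had in the levels of the members was not tested.

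Genes for the proteins that PSG and CEACAM1 are known to bind or signal through were measured as well. All 11 partners of PSG proteins had reads, beside 20665 of all 24302 genes. Itgb1, the beta subunit of the fibronectin receptor, had 3429 normalized counts per kb, Cd9 566, Itgb3 310, Itga2b 160 and Tgfb1, whose latent form PSG proteins bind, 162. The proteoglycans Sdc1, Sdc2, Sdc3, Sdc4 and Gpc1 had between 381 and 1064. All 7 partners of CEACAM1 had reads. Ctnnb1 (beta-catenin) had 7693 per kb and Ptpn11 (SHP-2) 816, whereas Ptpn6 (SHP-1), the phosphatase of blood cells, had 92.1 and Havcr2 (TIM-3) 13.9. Whether any of them was made in the same cells as a member cannot be read from whole embryos.

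All 30 members lie on chromosome 7 (GRCm38, the build named mm10 by the submitters). The 22 placental members fill chr7:16671331-18821607, a stretch of 2.15 Mb that holds 11 members on each strand. Its first 2 members, Ceacam15 and Ceacam9, are followed by a gap of 348 kb before Psg16. Psg16, Ceacam3 and Psg29 lie within 0.142 Mb, and Psg-ps1, Ceacam5, Ceacam14, Ceacam11, Ceacam13 and Ceacam12 within 0.406 Mb, both sets on the plus strand and with no other counted gene between them. The last 11, from Psg18 to Psg17, lie within 0.476 Mb, with only Psg22 on the plus strand. The other Ceacam genes lie outside, Ceacam16 starting 1030 kb beyond Psg17 and Ceacam18 farthest away at chr7:43634707-43649295.

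Along the chromosome, some neighbours differed widely in level per kb. Psg26 (6.52) lies between Psg28 (77.4) and Psg25 (63.7), and Psg20 (3.10) between Psg21 (135) and Psg22 (118). Ceacam15 (18.6) is 46.2 kb from Ceacam9 (251). Others were close, such as Psg18 (90.4) and Psg28 (77.4), Psg23 (94.9) and Psg21 (135), and Psg19 (59.8) and Psg17 (65.6). The placental stretch also holds 17 genes with reads that are no members, with a median of 218 per kb against 92.6 for the 22 members. Of these 17 genes, 13 had a mean of 100 counts or more, and all 13 lie between Ceacam9 and Psg16. The same mean was reached by 17 of the 22 members and by 12614 of all 20665 genes with reads.

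Coding sequences were close within the Psg genes, and some of the closest pairs differed widely in level. The identity of the longest coding sequences over the 78 pairs of coding Psg genes ranged from 68.3% to 97.5%, with a median of 86.1%. Psg21 and Psg23, the closest pair at 97.5%, differed 1.42 times in level per kb. With the longest transcript as length, their levels were 223 and 94.9. Psg26 and Psg28 were 97.0% identical and differed 11.9 times, and Psg26 and Psg18 95.5% and 13.9 times. Psg20 was closest to Psg21, at 90.6%, and differed 43.5 times from it. Psg19 and Psg22, at 93.9%, differed 1.97 times. Of 8 pairs at or above 90%, 3 differed more than 10 times, beside 23 of all 78 pairs, and the median ratio was 3.27 beside 2.98. Each of the 3 held Psg20 or Psg26. The other 5 differed at most 3.84 times.

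**Figure D4:**
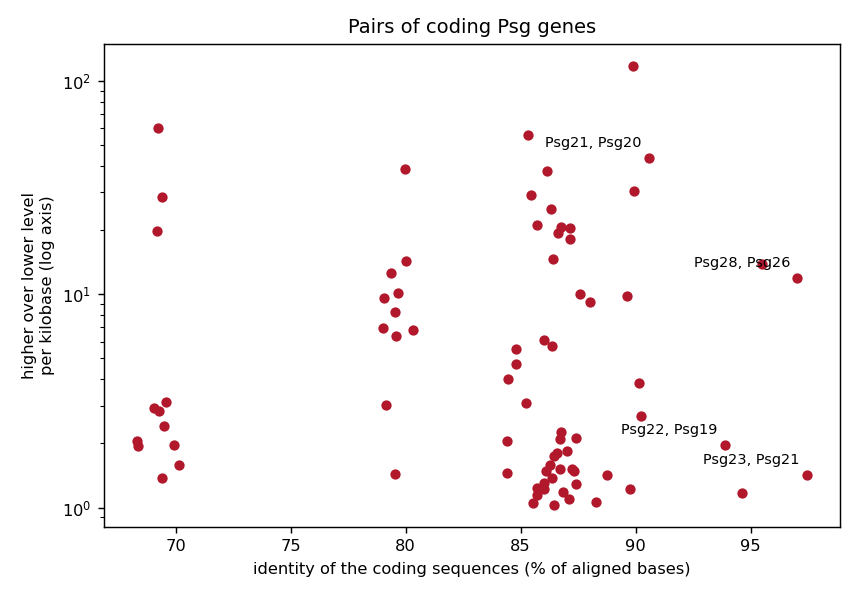
Each point is 1 of 78 pairs of coding Psg genes: identity of their longest coding sequences (percent of aligned bases) against the ratio of the higher to the lower level per kilobase (log axis). Pairs share genes and are not independent; at 90% identity and above, ratios run from 1.17 to 43.5 (Psg20 with Psg21).

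Outside the Psg genes, Ceacam13 and Ceacam14 were 88.7% identical and differed 2.46 times in level per kb, and Ceacam1 and Ceacam2 were 90.4% identical and differed 30.9 times. Ceacam3 and Ceacam5 were between 66.8% and 72.7% identical to the Psg genes and 66.5% to each other. Their coding sequences, 2118 and 2841 bases, are longer than those of the other placental Ceacam genes, from 702 to 909.

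Because the reads were single and 80 bases long, members could share reads only where 80 bases agree exactly or nearly so. The share of a member's 80-base transcript windows that also occurred in a transcript of another gene was 37.2% for Ceacam2 and 23.6% for Ceacam1, nearly all of them shared between these 2. It was 21.0% for Psg23, 19.3% for Psg26, 14.6% for Psg21, 14.3% for Psg28 and 10.1% for Psg20. For Ceacam16 it was 13.6%, shared with Gm19345. In the other 22 members it was at most 7.42%, and in 11 members it was 0. With reads spread evenly, the loss of every shared window would lower Psg26 by 1.24 times, Psg20 by 1.11 times and Ceacam2 by 1.59 times. Only exact matches to annotated transcripts were counted, so stretches that are nearly alike are left out of these values. The part that shared reads had in the differences between relatives was not tested. How the counting treated reads with several positions is not given in the sources used here.

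The smallest means also hold the number of reads in each library. A mean over 10 libraries is a sum of whole reads, each worth 1 divided by 10 times its library's size factor, and the 10 values that a single read can take were read from the genes with the fewest reads. The size factors were between 0.616 and 1.23. The files do not say which embryo has which size factor, so the libraries are numbered from the largest size factor (1) to the smallest (10), without genotype. For each of the 2986 genes with a mean under 2, exactly 1 set of whole reads gave the mean. The same held for Psg20 and Ceacam18, and 7 members could be read in this way. For the other 23 only limits could be given, from 83 to 168 reads for Psg26, from 150 to 301 for Ceacam10 and from 6250 to 12468 for Psg29.

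Ceacam20 had 2 reads in all, both in library 9. Ceacam-ps1 had 3 reads, 1 each in libraries 3, 8 and 9. Ceacam19 had 10 reads in 6 libraries, Ceacam2 had 11 in 6, and Ceacam16 had 14 in 7, with at most 3 reads in any library for each of these. Genes with a like mean had a median of 6, 6 and 7 libraries with reads, so these 3 were spread as other genes of their level were.

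Psg20 and Ceacam18 were spread unevenly. Psg20 had 56 reads: 26 in library 8, 13 in library 9, 12 in library 5, 3 in library 3 and 2 in library 4. The other 5 libraries had none. Divided by size factors, this is a median of 0.894 and a highest value of 28.1 normalized counts. Ceacam18, far from the placental stretch, had 74 reads: 47 in library 8, 21 in library 9, 2 in library 3 and 1 each in libraries 1, 2, 5 and 6. Libraries 4, 7 and 10 had none. Its median was 0.880 and its highest value 50.9 normalized counts. The same 2 libraries were thus highest for both genes, and libraries 7 and 10 had no read of either. A count of 0 reads in a library allows a true level of up to 3 reads there, for counting error alone.

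**Figure D5:**
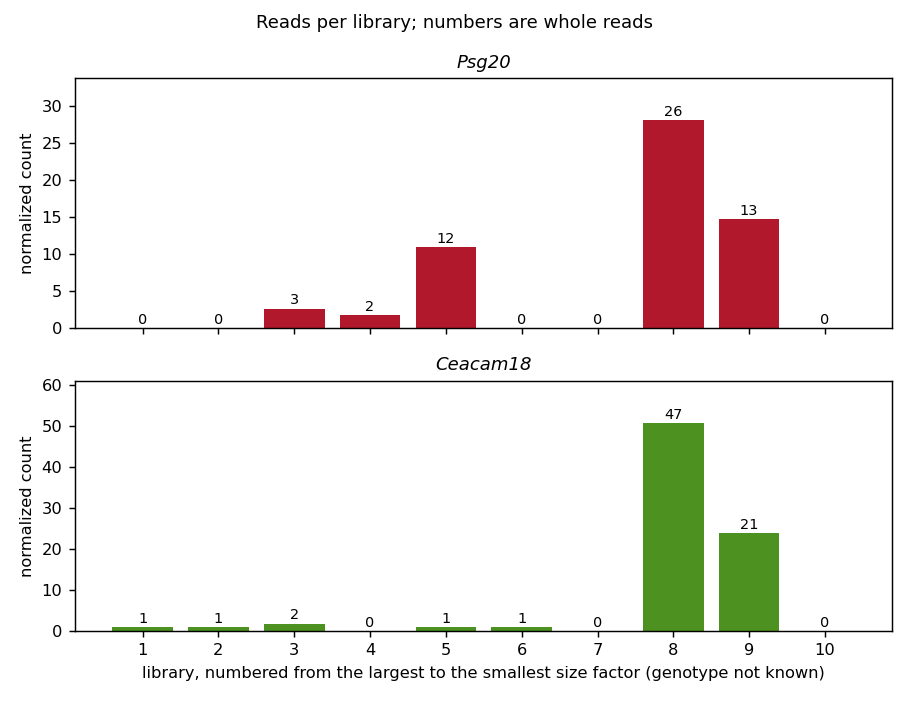
Normalized count (bars, from 0) of Psg20 and Ceacam18 in each of 10 libraries, numbered from the largest to the smallest size factor and of unknown genotype; the number above each bar is the count of whole reads. Libraries 8 and 9 are the highest for both genes, and library 5 is the next highest for Psg20 only.

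Libraries 8 and 9 together held 73.7% of the Psg20 mean and 93.4% of the Ceacam18 mean. Other genes were compared by their own 2 highest libraries. Among 243 genes with a mean between 5.2 and 6.4, these held a median of 38.3% of the mean, and 13 of the 243 reached the 73.7% of Psg20. Among 82 genes with a mean between 7.6 and 8.4 the median was 37.9%, and none reached the 93.4% of Ceacam18. Left out were 4 genes of the first set and 50 of the second for which the reads did not have exactly 1 solution. Library 8 was the highest for 54 of the 243 genes and 17 of the 82. The median gene of each set had reads in all 10 libraries. The mean of Psg20 rested on 5 of the 10 libraries. Without library 8 it fell from 5.82 to 3.34, and that of Ceacam18 from 8.0 to 3.23. Whether the means of the higher members are shared out in the same way was not measured.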

How the data were processed

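RNA-seq reads (single, 80 bases) came from 10 E11.5 embryos. The submitters' notes name bcl2fastq, FastQC, Trimmomatic 0.33, HISAT2, SAMtools, HTSeq and DESeq2, with build mm10. Versions of the others, the gene annotation and the treatment of multiply mapped reads are not given in the sources used here. The deposited values are normalized counts (a signal, not whole reads): the authors' mean over all embryos, divided by size factors. The remaining columns of both deposited tables hold the authors' own genotype comparisons (fold changes, errors, statistics and p-values) and were not used. No test was run.

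Means were divided by exon length (GENCODE M21, GRCm38), matched by Ensembl ID. Whole reads were solved from the means (relative tolerance 5e-15). The method was tested on simulated reads with means under 2 and in the range of Psg20, but not in the range of Ceacam18. Coding sequences were aligned with Biopython 1.88 (match 2, mismatch -1, gap -5 and -1; at least 80% of the shorter aligned). Windows of 80 bases were compared between transcripts on both strands. Every member is named or counted; other genes come from lists. The members and lists were chosen with earlier results of these data known. Python 3.11.15 was used.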

Additional observations from a re-analysis of the deposited data

How the results depend on the processing

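The ratio of the placental to the other median, 112 per kilobase of exon, was 149 without division by length, 128 with the longest transcript, 37.9 with means of at least 1, 158 with Ceacam10 among the placental members, 86.1 for Psg genes and 234 for placental Ceacam genes alone. No member was at 0, so including such members gave 112 again. The 5 highest members held 53.6% of the family without its pseudogenes. Psg29 was 174 times Psg20 without division by length and 59.9 times with the longest transcript. Members above the median of all genes numbered 12 per kilobase, 8 undivided and 11 with the longest transcript. Taking all size factors as 1 gave 58 reads for Psg20 and 80 for Ceacam18. No paired analysis was possible because the means used pool all embryos. Leaving out 1 library, added after seeing the data, was possible for the 7 members with solved reads. Psg20 then ran from 3.34 to 6.47 and Ceacam18 from 3.23 to 8.89 (both lowest without library 8), and Ceacam20 from 0 (without library 9) to 0.252. The other 4 moved by at most 1.42 times. The protein comparison was not run, and coding sequences were compared instead, a choice made after seeing the data. Lengths come from an annotation that may differ from the authors'.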
